A study of Mus musculus with 10 samples.

Results

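The genes described are 9 parts of the signalling chain through which the autonomic nerves and circulating adrenaline act on a heart muscle cell. They are the adrenergic receptors Adrb1, Adra1a and Adra1b, the muscarinic receptor Chrm2, the adenylyl cyclases Adcy5, Adcy6 and Adcy9, and the protein kinase A subunits Prkaca and Prkar1a. They were chosen by gene symbol, and all 9 are among the 23337 genes of the deposited count table. Poly(A) RNA was measured in cardiomyocytes, the beating muscle cells of the heart, from 10 mice with floxed alleles of Actn2, the gene of the Z-disc protein alpha-actinin-2. A floxed allele carries recognition sites between which the recombinase Cre removes DNA. The 5 knockout mice had the genotype Actn2 F/F, with both alleles floxed, and the 5 heterozygote mice had the genotype Actn2 F/+, with 1 floxed and 1 normal allele. Mice of both groups were given the virus AAV9-cTNT-Cre on postnatal day 1, and their cells were taken on postnatal day 14, after collagenase perfusion of the heart and fluorescence-activated sorting. The heterozygotes thus also carried the Cre virus and could lose 1 copy of Actn2, and no group without Cre or without a floxed allele was analysed here. In this virus a cardiac troponin T promoter drives Cre, and the labels do not say which fraction of the sorted cells had recombined.

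In the heart, noradrenaline and adrenaline bind the beta1 receptor, which activates the stimulatory G protein and, through it, adenylyl cyclase. The cyclic AMP that the cyclase makes binds the regulatory subunits of protein kinase A and frees the catalytic subunits, which phosphorylate calcium-handling and sarcomere proteins and speed and strengthen the beat. Acetylcholine from the vagus nerve binds the M2 receptor, which works through inhibitory G proteins to lower cyclase activity and to open a potassium channel. The alpha1 receptors couple instead to the Gq class of G proteins and phospholipase C. Lasting nuclear effects of cyclic AMP run through the factor CREB, which binds the cyclic AMP response element, TGACGTCA, and its shorter form TGACG.

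The start regions of both kinase subunits are shown. Prkar1a, a gene called changed below, was the only member with the full element among the members that could be searched. Prkaca encodes its catalytic partner. The sequences are the 250 bases before the start site, read 5′ to 3′ on the gene's strand, from RefSeq's promoter table for the mouse assembly GRCm38.p6, which has the coordinates of mm10. Capitals mark TGACGTCA, TGACG or its complement CGTCA. Prkaca is at chr8:83972728-83972977, plus strand, and Prkar1a is at chr11:109650699-109650948, plus strand.
Prkaca: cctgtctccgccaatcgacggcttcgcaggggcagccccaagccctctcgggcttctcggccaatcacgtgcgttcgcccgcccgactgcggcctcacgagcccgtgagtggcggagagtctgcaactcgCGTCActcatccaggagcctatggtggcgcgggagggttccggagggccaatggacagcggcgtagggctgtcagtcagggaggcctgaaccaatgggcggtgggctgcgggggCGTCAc
Prkar1a: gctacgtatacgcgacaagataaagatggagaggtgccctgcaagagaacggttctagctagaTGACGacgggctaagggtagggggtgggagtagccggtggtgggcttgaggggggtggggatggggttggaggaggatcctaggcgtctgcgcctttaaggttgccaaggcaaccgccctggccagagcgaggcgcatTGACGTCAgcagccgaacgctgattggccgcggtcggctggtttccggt
Prkar1a held the full TGACGTCA beginning 49 bases before its start, and this palindrome contains TGACG on both strands. It also held a separate TGACG 187 bases before the start. Prkaca held the shorter form on the reverse strand at 120 and 6 bases before its start, and no full element. The table had an entry for 7 of the 9 members, and none for Adra1a or for Adcy6, which is also called changed below. Prkar1a had more windows than any other member. Counted per window and on both strands, the full element was in 1 of the members' 14 windows and in 1.55% of all 32851 windows of the same length, and the shorter form was in 6 of the 14 and in 17.8% of all windows. The windows with the shorter form belonged to Adrb1, Adcy9, Prkaca and, with 3 windows, some of which overlap, Prkar1a. Both forms contain a CpG, and the Adrb1, Adcy9 and printed Prkaca and Prkar1a windows held 24, 34, 25 and 19 CpG at 74.0, 78.8, 68.8 and 61.6% GC, against medians of 6 CpG and 52.4% GC over all windows. No binding was measured in this study, so these matches describe letters only.

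All 9 genes passed the filter on low counts. By edgeR's quasi-likelihood test, 2 of them (22.2%) were called, meaning an adjusted p below 0.05, beside 18.9% of the 11870 genes tested, so the share of members called was near the background. Both were higher in the knockout, Adcy6 and Prkar1a, where 10.2% of all tested genes were called higher and 8.64% were called lower. Higher calls made up 54.3% of all calls, and 68.9% when libraries were scaled by their totals alone. The same 2 genes were the only members whose knockout and heterozygote values did not overlap, against 14.7% of all tested genes. The median log2 fold change of the 9 members was -0.08, against 0.0023 over all tested genes, with 6 estimates below 0 and 3 above.

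Levels below are normalised read counts in CPM, scaled by each library's total and its TMM factor, and animals are given in the order of their numbers. The p-values set the group difference against the spread between these samples and treat the samples as independent. The labels do not say whether animals came from separate litters, so this independence is uncertain. In bulk RNA, fewer cells of a type and less RNA per cell cannot be told apart. In the plot of the 9 genes by animal, the gap between groups is seen only for Adcy6 and Prkar1a.

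**Figure D1:**
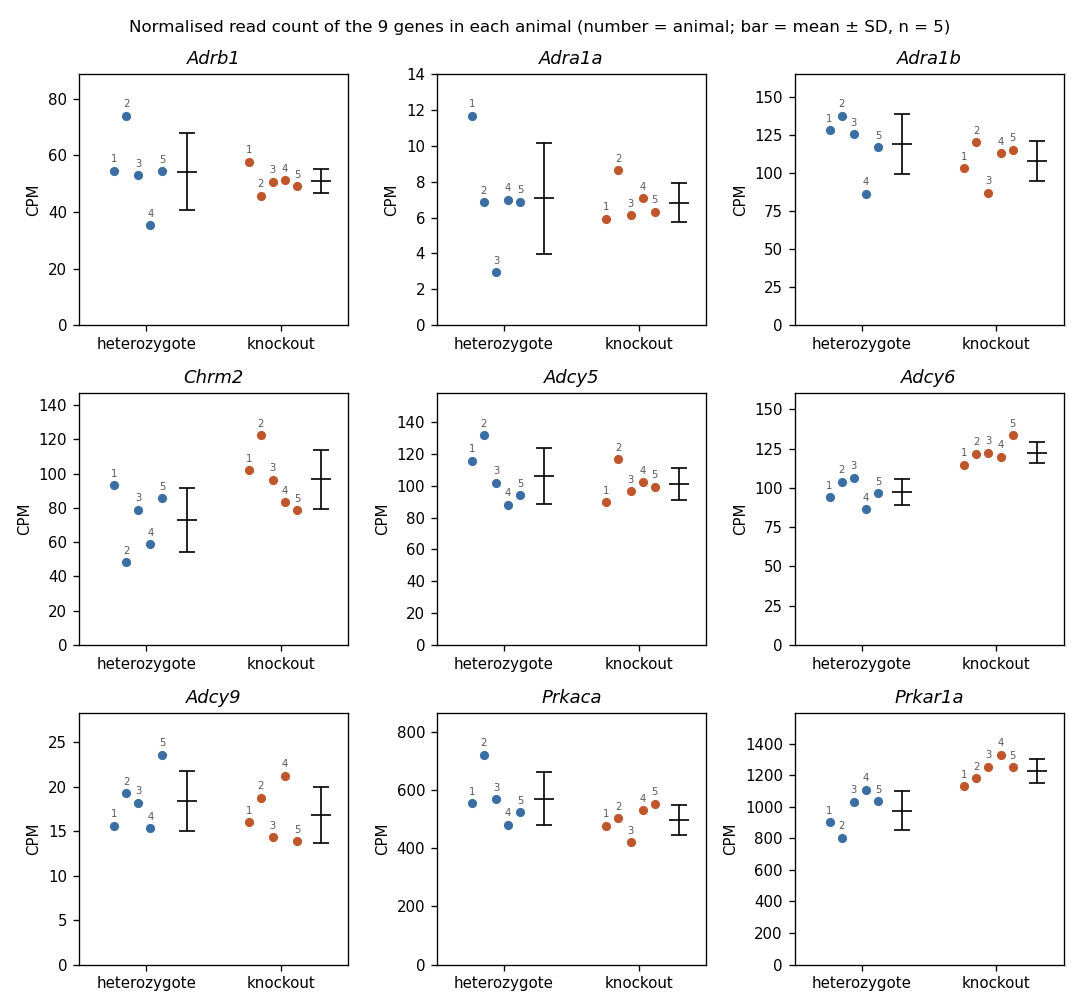
Normalised read count (CPM, vertical axis from 0) of each of the 9 genes in the 5 heterozygote (blue) and 5 knockout (orange) animals. Points are animals with their number, and the bar beside them is mean ± SD. All 5 knockout points lie above all 5 heterozygote points for Adcy6 and for Prkar1a, and the groups overlap in the other 7 panels.

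Adrb1, the beta1 receptor and the main adrenergic receptor of ventricular muscle, is a gene of 1 exon at chr19:56722372-56724862 (mm10, plus strand). It measured 54.6, 74.0, 53.1, 35.3 and 54.4 CPM in heterozygotes 1 to 5 and 57.8, 45.8, 50.7, 51.3 and 49.2 CPM in knockouts 1 to 5. The highest and the lowest of the 10 values were both heterozygotes, animals 2 and 4, and the knockouts lay between them. Knockout against heterozygote, the log2 fold change was -0.09 (SE 0.150, 95% interval -0.41 to 0.23) with an edgeR adjusted p of 0.724. Without heterozygote 2 the estimate was 0.04, so its sign rested on that animal.

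Adra1a and Adra1b encode alpha1 receptors, which in the mouse heart act on growth and contraction through phospholipase C. Adra1a (chr14:66635258-66733329, plus strand) was the least abundant member, with 23 to 278 counts per sample. It measured 11.7, 6.88, 2.95, 6.99 and 6.89 CPM in the heterozygotes and 5.93, 8.63, 6.15, 7.08 and 6.34 CPM in the knockouts. Heterozygote 1 was the highest and heterozygote 3 the lowest of the 10, while the knockouts stayed near the middle. The log2 fold change of Adra1a was -0.08 (SE 0.268, edgeR adjusted p = 0.870), and it was 0.20 without heterozygote 1.

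Adra1b (chr11:43774606-43836332, minus strand) measured 128, 138, 126, 86.5 and 117 CPM in the heterozygotes. In the knockouts it measured 103, 120, 87.1, 113 and 115 CPM. All 5 knockout values were below the heterozygote median of 126, yet heterozygote 4 was the lowest of the 10. Adra1b had a log2 fold change of -0.14 (SE 0.127, 95% interval -0.41 to 0.13), with an edgeR adjusted p of 0.482.

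Chrm2, the M2 receptor through which the vagus slows the heart, measured 93.4, 48.4, 78.9, 58.8 and 85.8 CPM in the heterozygotes and 102, 123, 96.5, 83.4 and 78.7 CPM in the knockouts. The 3 highest values were knockouts and the 2 lowest were heterozygotes, but heterozygotes 1 and 5 lay above knockouts 4 and 5. Its log2 fold change of 0.40 (SE 0.171, 95% interval 0.03 to 0.77) was the largest estimate among the 9. The unadjusted p was 0.0349 and the edgeR adjusted p over all genes 0.122, so Chrm2 was not called. The adjusted p stayed above 0.05 in all 21 alternative analyses, from 0.0578 to 0.546. Chrm2 (chr6:36388084-36524774, plus strand) shares 79 exon bases with 9330158H04Rik. The counting did not use strand, so reads in those bases could not be assigned to either gene.

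M2 receptors are known to be denser in atrial than in ventricular muscle, so the atrial markers are given beside Chrm2. The 7 atrial markers summed to 111 to 354 CPM in the heterozygotes and 974 to 2372 CPM in the knockouts. Nppa, which encodes atrial natriuretic peptide and is also a gene of the fetal and stressed ventricle, made up most of that sum in each knockout and was the only 1 of the 7 called by edgeR. The other 6 summed to 51.3 to 129 CPM in the heterozygotes and 38.8 to 377 CPM in the knockouts, and edgeR called 0 of the 6 (3 had an unadjusted p below 0.05), DESeq2 1 and limma's voom 1. Of these 6, Myl4, Myl7 and Sln had log2 fold changes above 0 (1.451, 1.765 and 2.651). Kcnj3, Kcna5 and Stard10 had log2 fold changes below 0 (-0.58, -0.61 and -0.80). Knockout 5, with the highest Myl7 (177 CPM) and Sln (72.5 CPM) of all animals, had the lowest Chrm2 of the knockouts. Knockout 1, with the next highest Myl7 (44.4 CPM) and Sln (9.58 CPM), had more Chrm2 than every animal but knockout 2. Knockout 1 had less Kcna5 (8.43 CPM) than every heterozygote, so the 7 markers did not rank the animals alike. The part of atrial cells in the Chrm2 values was not tested. With the score of all 7 atrial markers as a covariate, the Chrm2 estimate was larger, 0.53 (edgeR adjusted p 0.0593), and with the endothelial score it was 0.28 (adjusted p 0.546).

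None of the 10 other adrenergic and muscarinic receptors in the table passed the filter. Adra1d, the remaining alpha1 receptor, had 2 to 25 counts. Chrm1 and Chrm5 had 0 counts in every sample. This allows a level of up to 0.119 to 0.371 CPM depending on the sample, for counting error only. These limits were scaled by library totals without the TMM factor. The 4 receptors described above were therefore the receptors of both families that could be tested in these cells.

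Adcy5 and Adcy6 are the main adenylyl cyclases of the heart muscle cell, both inhibited by calcium and by inhibitory G proteins. Adcy5 (chr16:35155636-35304549, plus strand) measured 116, 132, 102, 88.1 and 94.2 CPM in the heterozygotes and 89.5, 117, 96.7, 102 and 99.4 CPM in the knockouts. Heterozygotes 2 and 4 were again the highest and the lowest of the 10. The log2 fold change of Adcy5 was -0.08 (SE 0.116, 95% interval -0.32 to 0.17, edgeR adjusted p = 0.708), and without heterozygote 2 it was 0.02.

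Adcy6 (chr15:98589986-98607633, minus strand) rose in the knockout. It measured 94.0, 104, 106, 86.3 and 96.6 CPM in the heterozygotes and 115, 122, 122, 120 and 134 CPM in the knockouts. The lowest knockout was above the highest heterozygote, and the spread was small in both groups, with a coefficient of variation of 8.28% and 5.62%. The means were 97.4 ± 8.06 and 122 ± 6.88 CPM (SD, n = 5), a fold of 1.26. The log2 fold change was 0.33 (SE 0.0870, 95% interval 0.14 to 0.52), with an edgeR adjusted p of 0.0159.

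The endothelial markers moved with the groups. Their 10 genes summed to 504 to 803 CPM in the heterozygotes and 342 to 569 CPM in the knockouts, none was at 0, and 2 of the 10 (Egfl7 and Cldn5) were called lower by edgeR and 6 by DESeq2, while all 10 had an unadjusted edgeR p below 0.05. With their score as a covariate, the estimate for Adcy6 was 0.25 and its edgeR adjusted p was 0.275, while all calls over the table fell from 2241 to 927. With the score of the 7 atrial markers as a covariate, the Adcy6 estimate was 0.30 and the adjusted p 0.0527. That score includes Nppa, at 50.51 to 224.5 CPM in the heterozygotes and 918.5 to 2262 CPM in the knockouts. The score therefore carries part of the group difference itself. The Adcy6 call was kept when any 1 animal was left out.

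Adcy9, a cyclase that responds only weakly to forskolin, the usual activator of the family, measured 15.6, 19.3, 18.2, 15.3 and 23.6 CPM in the heterozygotes and 16.03, 18.8, 14.3, 21.2 and 13.9 CPM in the knockouts. Its location is chr16:4287545-4419587, minus strand. The groups were interleaved, and the log2 fold change of -0.13 (edgeR adjusted p = 0.631, SE 0.157) was within the spread between animals.

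Of the 7 other adenylyl cyclases, 4 were tested, 1 was called higher and 1 lower, with a median log2 fold change of -0.20. Adcy7, a calcium-insensitive cyclase, was at 1.14 ± 0.365 CPM in the heterozygotes and 2.79 ± 0.978 CPM in the knockouts (SD, n = 5), or 1.30 in log2 fold change (SE 0.323, edgeR adjusted p = 0.0117) on 6 to 72 counts per sample. Adcy4, which endothelial cells also express, fell from 15.4 ± 3.81 to 9.27 ± 1.76 CPM (SD, n = 5), or -0.72 in log2 fold change (edgeR adjusted p = 0.0171), and it was -0.24 (adjusted p 0.553) with the endothelial score as a covariate. Adcy8 and Adcy10 were below the filter, and Adcy2 had 0 counts in every sample.

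Prkaca and Prkar1a, a catalytic and a regulatory subunit of protein kinase A, were the most abundant members. Prkaca (chr8:83972978-83996445, plus strand) measured 554, 722, 568, 481 and 525 CPM in the heterozygotes and 477, 504, 420, 531 and 553 CPM in the knockouts. All 5 knockout values were below the heterozygote median of 554, knockout 5 by a narrow margin, and 3 of them lay within the heterozygotes' range. Prkaca had a log2 fold change of -0.20 (SE 0.114, 95% interval -0.44 to 0.05, edgeR adjusted p = 0.253).

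Prkar1a (chr11:109650949-109669648, plus strand), whose protein is the type I alpha regulatory subunit, rose in the knockout. It measured 902, 803, 1031, 1107 and 1034 CPM in the heterozygotes and 1130, 1182, 1253, 1329 and 1249 CPM in the knockouts. The lowest knockout, animal 1, was above the highest heterozygote, animal 4, by a narrow margin. The means were 975.5 ± 121 and 1229 ± 75.9 CPM (SD, n = 5), a fold of 1.26. The log2 fold change was 0.33 (SE 0.0964, 95% interval 0.13 to 0.54), with an edgeR adjusted p of 0.0262.

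The Prkar1a call sat near the threshold. It was lost without heterozygote 1 (edgeR adjusted p 0.0644), knockout 3 (0.0594), knockout 4 (0.0691) or knockout 5 (0.0533), with estimates of 0.30 to 0.33. With the endothelial score as a covariate the estimate was larger, 0.43, and the adjusted p was 0.0669. The start region printed for Prkar1a is the one at the start of the gene as the table counts it.

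**Figure D2:**
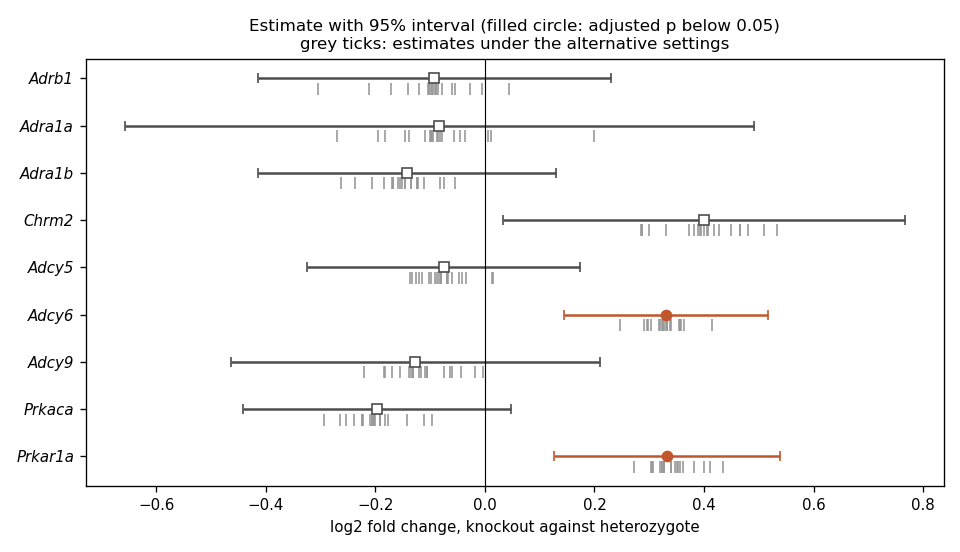
Log2 fold change of each of the 9 genes, knockout against heterozygote (horizontal axis), with its 95% interval from edgeR. Filled circles are the genes with an adjusted p below 0.05, open squares the others, and grey ticks the estimates under the 21 alternative analyses. The ticks of Adrb1, Adra1a and Adcy5 fall on both sides of 0, and those of Adcy6, Prkar1a and Chrm2 are all above it.

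Of the 7 other protein kinase A subunits and inhibitors, 6 were tested, 2 were called higher and 0 lower, with a median log2 fold change of 0.18. Pkia, which encodes a peptide inhibitor of the catalytic subunit, rose from 153 ± 22.5 to 217 ± 29.4 CPM (SD, n = 5), or 0.50 in log2 fold change (SE 0.122, edgeR adjusted p = 0.0113). Prkacb, the beta catalytic subunit, rose from 110 ± 12.97 to 140 ± 17.1 CPM (SD, n = 5), or 0.34 in log2 fold change (edgeR adjusted p = 0.0402) with no overlap between the groups. The Prkacb call was lost in 12 of the 21 alternatives, among them leaving out any of heterozygotes 2 to 5 or knockouts 1 to 4, with estimates of 0.27 to 0.40 over the animals left out. Prkar2a, the other abundant regulatory subunit, had a log2 fold change of -0.11 (edgeR adjusted p = 0.430).

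Within each animal, Prkar1a made up 87.1, 84.7, 89.0, 90.7 and 89.1% of the regulatory subunit transcripts per length in the heterozygotes and 89.9, 90.3, 91.5, 92.1 and 91.3% in the knockouts. Heterozygote 4 lay above knockouts 1 and 2, and the other heterozygotes lay below every knockout. The mean share was 88.1 ± 2.31% against 91.0 ± 0.902%, 2.90 percentage points apart (two-sided exact permutation test, p = 0.0238, n = 5 per group, smallest possible p 0.00794). Prkar2a held 11.5 ± 2.20% and 8.61 ± 1.05% of the same total. Prkar1a is part of this share, so the share repeats in part the rise described above.

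Per length, as RPKM, the 9 genes spanned a wide range of levels. In the heterozygotes the order of mean levels was Prkar1a (294 RPKM), Prkaca (249), Adra1b (39.0), Chrm2 (35.9), Adrb1 (21.8), Adcy5 (21.0), Adcy6 (16.2), Adcy9 (4.13) and Adra1a (1.71). In the knockouts the levels in that order were 370, 217, 35.4, 47.5, 20.5, 19.9, 20.3, 3.78 and 1.65 RPKM. Prkar1a and Prkaca were thus at several times the level of any receptor or cyclase among the 9 in both groups, and Adra1b was far above Adra1a.

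Neighbours in this order were compared animal by animal, as a description. Prkar1a was above Prkaca in 4 of 5 heterozygotes and 5 of 5 knockouts. Adra1b was above Chrm2 in 2 of 5 heterozygotes and 0 of 5 knockouts. Adrb1 and Adcy5 did not separate beyond their spread, with Adrb1 above in 3 of 5 heterozygotes and 4 of 5 knockouts. Adcy5 was above Adcy6 in 5 of 5 heterozygotes and 2 of 5 knockouts. The steps from Prkaca to Adra1b, from Adcy6 to Adcy9 and from Adcy9 to Adra1a held in all 10 animals.

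**Figure D3:**
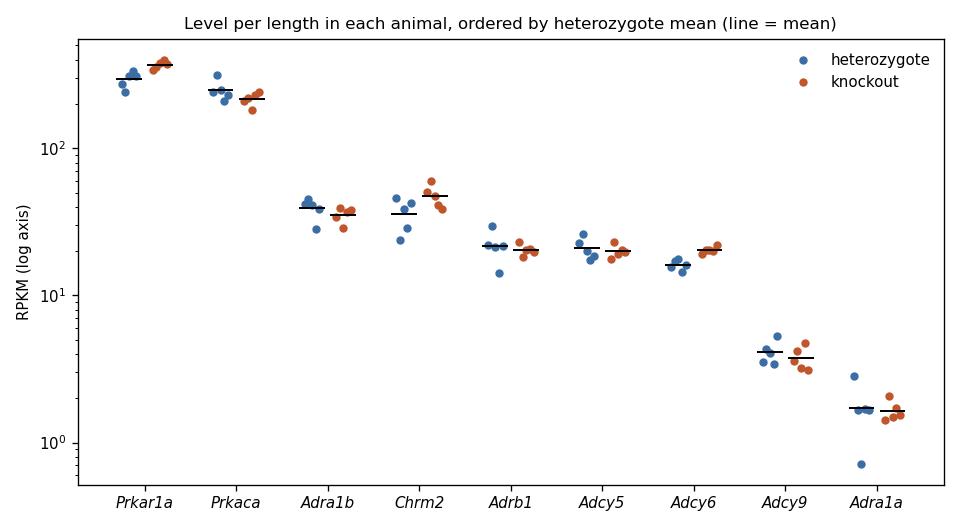
Level per length (RPKM, log axis) of the 9 genes in each animal, ordered by the heterozygote mean, with heterozygotes in blue and knockouts in orange and a line at each group's mean. Prkar1a and Prkaca stand highest in both groups, and Adra1a is lowest, with means of 1.71 and 1.65 RPKM.

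The Adcy5 level per length divided by that of Adcy6 was 1.47, 1.51, 1.14, 1.22 and 1.16 in the heterozygotes and 0.929, 1.14, 0.941, 1.02 and 0.886 in the knockouts. The means were 1.30 ± 0.177 and 0.982 ± 0.100 (SD, n = 5). Knockout 2 reached the level of the lowest heterozygote, animal 3, and the other knockouts lay below all heterozygotes. Of the summed level of the 3 cyclases, Adcy5 held 50.7 ± 3.73% in the heterozygotes and 45.2 ± 1.96% in the knockouts, while Adcy6 held 39.3 ± 2.51% and 46.2 ± 2.72%. These shares are made of the members themselves and were given no test.

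The Prkar1a level per length divided by that of Prkaca was 1.12, 0.768, 1.25, 1.59 and 1.36 in the heterozygotes and 1.63, 1.62, 2.06, 1.73 and 1.56 in the knockouts. The means were 1.22 ± 0.304 and 1.72 ± 0.200 (SD, n = 5). Heterozygote 2 was the only animal with less Prkar1a than Prkaca per length, and heterozygote 4 lay just above knockout 5.

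**Figure D4:**
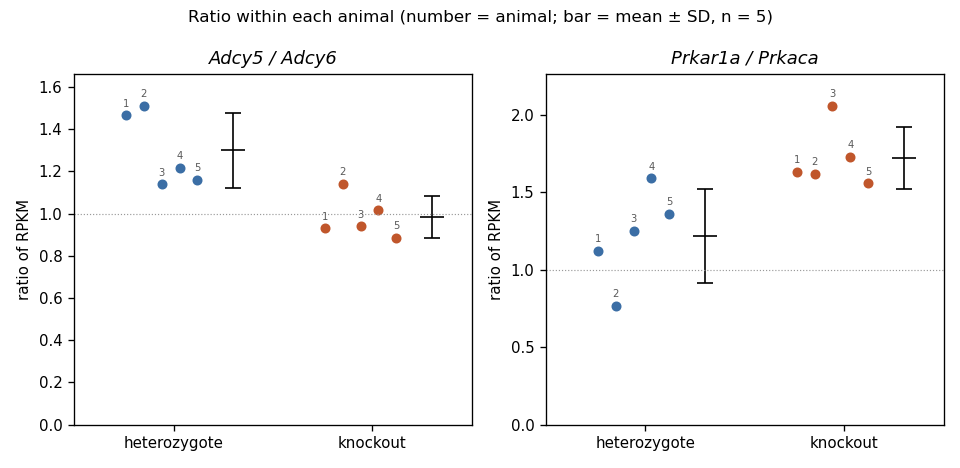
Ratio of RPKM within each animal, Adcy5 to Adcy6 on the left and Prkar1a to Prkaca on the right, with the dotted line at a ratio of 1 and mean ± SD beside the points (n = 5 per group). The mean of the left ratio is 1.30 in heterozygotes and 0.982 in knockouts, that of the right ratio 1.22 and 1.72, and the groups touch or overlap in both panels.

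Among the heterozygotes, 2 animals held most of the group's highest and lowest values. Heterozygote 2 was the highest heterozygote for Adrb1, Adra1b, Adcy5 and Prkaca and the lowest for Chrm2 and Prkar1a. Heterozygote 4 was the lowest for 6 of the 9 members (Adrb1, Adra1b, Adcy5, Adcy6, Adcy9 and Prkaca) and the highest for Prkar1a. Heterozygote 4 also had the highest endothelial sum of the 10 animals, 803 CPM, and the part of those cells in its low values was not tested. The coefficient of variation was lower in the knockouts than in the heterozygotes for 8 of the 9 members, for example 8.62% against 25.3% for Adrb1. Adcy9 was at 18.5% and 18.3%. The share of all tested genes with a lower coefficient in the knockouts was not computed, so this count may not be particular to the members.

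By correlation of log2 CPM over the 10 samples, among 8369 genes whose mean reached 10 CPM, the genes most like Adcy6 were Tspyl1 (r = 0.967), Xpc (0.965) and Maged1 (0.957). Those most like Prkar1a were Wsb1 (r = 0.971), Anxa7 (0.969) and Azin1 (0.966). After the group means were removed these correlations were 0.841 to 0.933. Differences between the samples in library depth and group are common to all genes, and these genes were picked as the highest of many.

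Around the members, 13 lists of genes of the same chain held 153 genes in the table, of which 129 were tested and 29 called (22.5%), 20 higher and 9 lower, with a median log2 fold change of -0.03. This share was near the 18.9% of all tested genes. With the endothelial score as a covariate, 11 of the 29 calls were kept (Akap2, Pde1c, Gnao1, Gnai1, Grk5, Rgs7, Popdc3, Bves, Tnni3, Prkcd and Prkca) and 18 were lost. Of those 18 none changed sign and 7 had an estimate at least as large as without the covariate, such as Pkia (0.58), Prkacb (0.37) and Itpr1 (0.68), whereas Adcy4 shrank from -0.72 to -0.24. Folds of pathway genes beyond 2 on the linear scale were seen for Gnao1, Grk5, Adcy7 and Rgs7 alone among the named genes.

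Of 17 G protein subunits, 16 were tested, 2 were called higher and 0 lower, with a median of -0.05. Gnao1, the Go alpha subunit of the inhibitory class, rose from 5.06 ± 1.34 to 67.7 ± 26.5 CPM (SD, n = 5), or 3.73 in log2 fold change (SE 0.266, edgeR adjusted p = 7.05e-07). Gnai1, an inhibitory alpha subunit, rose from 20.6 ± 4.23 to 30.8 ± 2.78 CPM, or 0.57 in log2 fold change (edgeR adjusted p = 0.00920). The other alpha subunits of the list were not called. The log2 fold change was -0.05 for Gnas, the stimulatory alpha subunit (1608 and 1551 CPM), which shares exon bases with Nespas. It was 0.01 for Gnai2, 0.02 for Gnai3, -0.14 for Gnaq and -0.13 for Gna11. In the heterozygotes Gna11 was at 111.8 CPM and Gnaq at 24.5 CPM.

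Receptor kinases phosphorylate active receptors and arrestins then uncouple them, while RGS proteins switch G proteins off. Of 18 such genes in the table, 16 were tested, 2 were called higher and 2 lower, and all 4 did not overlap between groups. Grk5 rose from 6.997 ± 1.41 to 24.3 ± 5.85 CPM (SD, n = 5), or 1.81 in log2 fold change (SE 0.191, edgeR adjusted p = 1.98e-05). Adrbk2, the symbol used in the table for Grk3, rose by a log2 fold change of 0.66 (edgeR adjusted p = 0.00491). Grk6 (log2 fold change -0.46, adjusted p 0.0122) and Rgs7 (-1.06, adjusted p 0.00251) fell. Adrbk1, the symbol of Grk2, the main receptor kinase of the heart, was not called (log2 fold change -0.23, edgeR adjusted p = 0.214).

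Phosphodiesterases break down cyclic nucleotides. Of 18, 15 were tested, 2 were called higher and 1 lower, with a median of -0.11. Pde1c, a calmodulin-stimulated form, fell from 99.9 ± 7.56 to 60.3 ± 11.7 CPM (SD, n = 5), or -0.73 in log2 fold change (SE 0.128, edgeR adjusted p = 0.00128) with no overlap. Pde7b rose from 5.44 ± 1.11 to 8.69 ± 2.20 CPM (log2 fold change 0.67, adjusted p 0.0361). Pde3a, a form inhibited by cyclic GMP, rose from 58.8 ± 10.7 to 76.1 ± 6.86 CPM (0.37, adjusted p 0.0489). Its relative Pde3b was not called (log2 fold change 0.31, edgeR adjusted p = 0.392). The Pde3a call was lost in 15 of the 21 alternatives, including all 5 knockouts and heterozygotes 2, 4 and 5 when left out, and the Pde7b call in 8, including heterozygotes 2, 3 and 4 and knockouts 2, 3 and 5. Pde4d and Pde4b, main cyclic AMP phosphodiesterases of the mouse heart, were not called (log2 fold changes -0.55 and 0.06, edgeR adjusted p 0.128 and 0.887).

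Anchoring proteins hold protein kinase A at particular sites of the cell. Of 14, 11 were tested, 3 were called higher and 0 lower, with a median of -0.03. Akap2 rose from 132 ± 30.3 to 210 ± 22.2 CPM (SD, n = 5), or 0.68 in log2 fold change (edgeR adjusted p = 0.00416). Akap13 (log2 fold change 0.47, adjusted p 0.0141) and Akap11 (0.54, adjusted p 0.0341) also rose, and the Akap11 call was lost without heterozygote 5 or any of knockouts 2 to 5. Akap6, which anchors the kinase at the nuclear envelope and the ryanodine receptor, was not called (log2 fold change 0.34, edgeR adjusted p = 0.0894).

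Cyclic AMP also binds the exchange factors Rapgef3 and Rapgef4 and the membrane proteins of the POPDC family. All 5 genes of this list were tested, 2 were called higher and 1 lower, and the 3 called did not overlap between groups. Bves rose from 129 ± 13.4 to 215 ± 18.2 CPM (SD, n = 5), or 0.73 in log2 fold change (SE 0.0985, edgeR adjusted p = 0.000155). Popdc3 rose by 0.74 on the log2 scale (adjusted p 7.33e-05), and Popdc2 fell by 0.39 (adjusted p 0.00531). Rapgef3 was at -0.61 (adjusted p 0.0681).

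Of 15 genes listed as kinase substrates of the heart, all were tested, 3 were called higher and 2 lower, with a median of 0.17. Cacna1c, the pore of the L-type calcium channel, rose from 126 ± 15.9 to 168 ± 21.0 CPM (SD, n = 5), or 0.42 in log2 fold change (edgeR adjusted p = 0.0168). Mybpc3, myosin-binding protein C, rose by 0.43 (adjusted p 0.0117), and Tnni3, cardiac troponin I, fell by 0.53 (adjusted p 0.00165). Smpx rose (0.54, adjusted p 0.00616) and Atp2a2, the calcium pump of the sarcoplasmic reticulum, fell (-0.40, adjusted p 0.0243), although neither is a usual substrate: Smpx is a small muscle protein, and Atp2a2 is acted on through phospholamban. The Atp2a2 call was lost in 8 of the 21 alternatives, among them library totals alone (adjusted p 0.0565), the atrial covariate and leaving out heterozygote 1, 3 or 5 or knockout 3 or 4. The substrates Pln and Ryr2 were not called (log2 fold changes -0.09 and 0.04).

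Of 11 phosphatase genes that reverse the kinase's work, all were tested, 0 were called higher and 2 lower, with a median of -0.01. Ppp1ca (log2 fold change -0.32, edgeR adjusted p = 0.0304) shares exon bases with Rad9, and Ppp2r5a (-0.28, adjusted p 0.0279) with Tmem206. The Ppp1ca call was lost in 6 of the 21 alternatives, among them library totals alone and leaving out any of knockouts 2 to 5. The Ppp2r5a call was lost in 12, among them library totals alone (adjusted p 0.104), no filter (0.0588), the atrial covariate (0.0664) and leaving out heterozygote 1, 3 or 5 or knockout 1, 2, 3 or 5.

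Genes that carry or read the cyclic AMP response element gave 0 calls among 16 tested in edgeR, and 0 in DESeq2 and in voom, with 2 at an unadjusted p below 0.05 and a median of 0.08. Nr4a1, an immediate target, varied widely between animals, at 231 ± 138 CPM in the heterozygotes and 136 ± 79.7 CPM in the knockouts (SD, n = 5, log2 fold change -0.76, edgeR adjusted p = 0.229). Ppargc1a, a mitochondrial coactivator with the highest mean CPM of the list, was at 238 ± 92.3 and 188 ± 63.3 CPM (log2 fold change -0.34, adjusted p 0.379), and its estimate was -0.09 without heterozygote 4 and -0.56 without knockout 5.

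In the phospholipase C arm used by the alpha1 receptors, 14 of 15 genes were tested, 3 were called higher and 0 lower, with a median of -0.11. The protein kinase C genes Prkcd and Prkca rose by log2 fold changes of 0.95 (edgeR adjusted p = 0.000869) and 0.55 (adjusted p 0.00109), each with no overlap. Itpr1, a calcium release channel opened by inositol trisphosphate, rose by 0.57 (adjusted p 0.0154). Of the 2 subunits of the potassium channel that M2 receptors open, edgeR called 0, while DESeq2 and voom each called 1 and 1 had an unadjusted edgeR p below 0.05. Kcnj5 had a log2 fold change of 0.17 (edgeR adjusted p = 0.438) and Kcnj3 of -0.58 (adjusted p 0.0617).

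**Figure D5:**
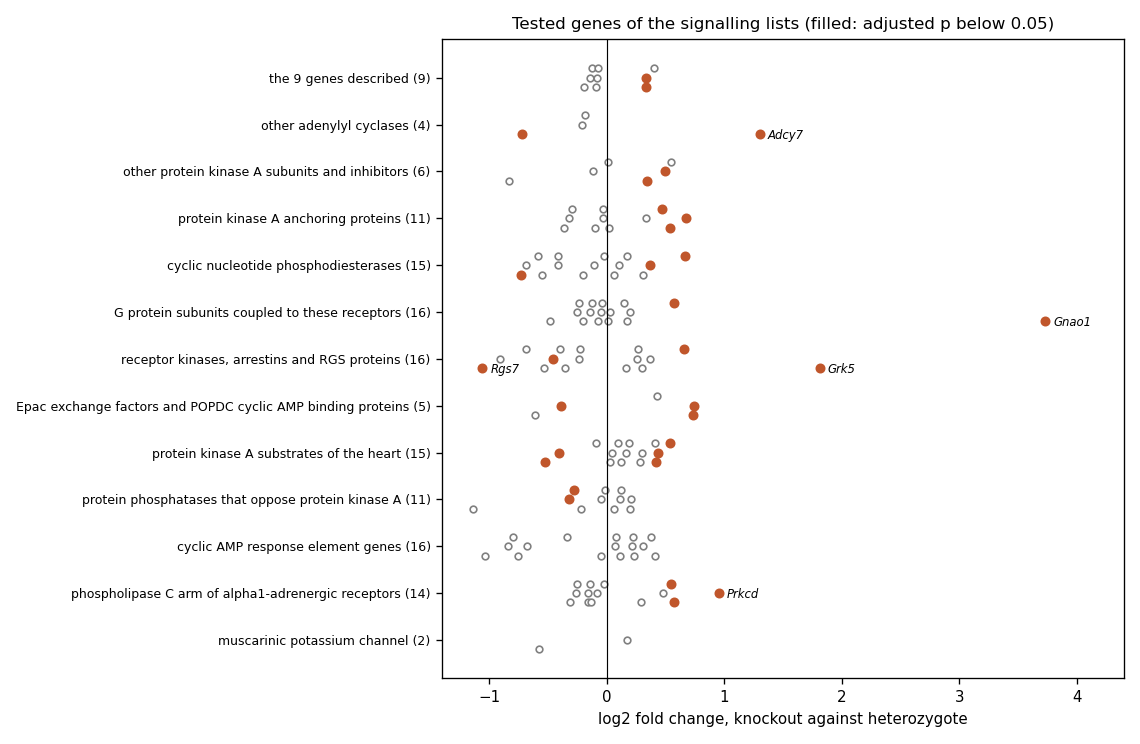
Log2 fold change, knockout against heterozygote (horizontal axis), of the tested genes of each list (rows, number tested in brackets), with filled points for genes at an adjusted p below 0.05. The called members sit at 0.33, Gnao1 lies far to the right at 3.73, Grk5 is at 1.81, and the response element list has 0 filled points.

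Total counts ran from 8086656 to 25237696 per sample. All 8 cardiomyocyte markers were abundant, with sums of 95540 to 122100 CPM in heterozygotes and 94590 to 120100 CPM in knockouts. Of these 8, edgeR called 2, Tnni3 lower (log2 fold change -0.53) and Mybpc3 higher (0.43). Actn2 was 2677 to 3474 CPM in the heterozygotes and 1145 to 1286 CPM in the knockouts (log2 fold change -1.39, edgeR adjusted p = 3.48e-07), in accord with the labels. Besides the endothelial and atrial lists, fibroblast markers summed to 330 to 539 CPM in heterozygotes and 318 to 648 CPM in knockouts, with 0 of the 7 tested called by edgeR, DESeq2 or voom and 0 at an unadjusted p below 0.05. Smooth muscle and pericyte markers summed to 484 to 718 and 541 to 708 CPM, with 1 of 8 (Cspg4) called higher by edgeR and 2 called by voom. All other genes of this list had log2 fold changes below 0, from -0.26 for Abcc9 to -0.72 for Vtn, and edgeR called none of them. Macrophage and leukocyte markers summed to 13.7 to 37.0 and 8.09 to 11.3 CPM, without overlap, and of the 4 tested by edgeR 1 (Csf1r) was called lower and 3 had an unadjusted p below 0.05, while DESeq2 called 5 of the 8. Markers of Schwann cells and neurons summed to 9.21 to 17.1 and 7.02 to 13.5 CPM, with 1 of the 2 tested (Dbh) lower and Th, Chat and Prph at or near 0. Erythroid genes stayed at or below 1.18 CPM in sum, and of the 3 conduction cell markers that passed the filter, of 6 listed, edgeR, DESeq2 and voom called 0, and 0 had an unadjusted p below 0.05.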

How the data were processed

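Poly(A) RNA libraries of sorted cardiomyocytes from 5 knockout and 5 heterozygote mice were analysed. The deposited values are whole-number read counts per gene, which the authors made with featureCounts 1.5.1 on build mm10 per the file headers, while Subread 1.5.2 and STAR 2.5.3a are named in the submitters' processing notes, so the aligner and version are uncertain. The header records no strand option. Of 14 count columns, 4 matched no sample here and were not used. Replicates all differed by more than sampling noise.

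Genes were filtered with filterByExpr (minimum count 10, total 15), scaled by TMM and compared with edgeR 4.0.16 (R 4.3.3, quasi-likelihood F test, no covariate), with Benjamini-Hochberg adjustment over the 11870 tested genes. The Prkar1a share was compared by an exact permutation over 252 arrangements (scipy 1.17.1). RPKM used the table's gene lengths. Marker scores were means of log2 CPM. DESeq2 1.42.0, limma 3.58.1 voom, other scalings and filters, covariates and left-out animals were alternatives. The fit was tested on simulated counts.

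The members and lists were chosen with earlier results of these data known. Named genes are the 9 members, called genes of each list at 1 CPM or more on average (at most 6 by size, otherwise its highest gene), the 3 genes most like each called member, and Actn2. Other genes were named as background of a list, after their values were seen. For 1 list the gene that this rule names is not reported here.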

Additional observations from a re-analysis of the deposited data

Results flagged for a closer look

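In each group of 5 animals, the gap from the highest or lowest value to the nearest other was compared with the group's range, and a share above 0.71 set a value apart. Of 90 groups examined 5 had such a value, where chance gives about 1 in 20.

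The ratio of Adrb1 to Chrm2 per length was 1.25 in heterozygote 2, and the next heterozygote was at 0.549. The ratio of Adra1b to Adra1a per length was 57.9 in heterozygote 3, where Adra1a had 23 counts, and the next was 27.2. Among the genes of the lists, Tnni3 was 8396 CPM in heterozygote 2 against 6681 in the next, and Ppp1ca was 656 CPM in heterozygote 2 against 515 in the next. Ppargc1a was 297 CPM in knockout 5 against 186 in the next.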

How the results depend on the processing

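Over the 21 alternatives, Adra1b, Chrm2, Adcy9 and Prkaca kept their direction and stayed uncalled. With the endothelial score as a covariate 0 members were called and 927 genes in all, against 2 and 2241, and with the atrial score 1 member was called. With the endothelial score Adcy6 was at 0.25 (adjusted p 0.275), Prkar1a at 0.43 (0.0669) and Kcnj5 at -0.085, and with the atrial score Adcy6 was at 0.30 (0.0527). The cause was not tested, and the atrial score includes Nppa, whose values did not overlap between groups. Leaving out 1 animal at a time gave 1 to 2 member calls and 1699 to 2258 calls in all, with log2 fold changes of -0.21 to 0.045 for Adrb1, -0.24 to -0.07 for Adra1b (nearest 0 without knockout 3), 0.29 to 0.51 for Chrm2, -0.22 to -0.02 for Adcy9 (without heterozygote 5), -0.25 to -0.10 for Prkaca (without heterozygote 2), -0.27 to 0.20 for Adra1a, -0.14 to 0.015 for Adcy5, 0.29 to 0.36 for Adcy6 and 0.27 to 0.38 for Prkar1a, whose call was lost for 4 of the 10 animals. Scaling by library totals alone gave 0.0059 for Adra1a and 0.012 for Adcy5, moved the median of all genes from 0.0023 to 0.08 and the share of calls that were higher from 54.3% to 68.9% (1684 higher and 760 lower). The labels do not say whether equal replicate numbers pair animals, and for that reason the animals were treated as unpaired. The correlations of same-numbered samples were -0.06 to 0.19. With the replicate block Adra1a was at 0.012, 2182 genes were called and Adcy6 (0.0340) and Prkar1a (0.0236) stayed called. Heterozygotes 4 and 5 correlated best with the knockout of their own number, and heterozygotes 1 to 3 did not. The share of Prkar1a differed by 2.04 to 3.55 points without any 1 animal (exact permutation p 0.0159 to 0.0476). Of 31 tested pathway genes named, 12 kept direction and call in all alternatives run, and 80 of 650 combinations of gene and alternative lost a call. Adra1a rested on as few as 23 counts and Adcy7 on as few as 6, and Adcy7 was not tested under a filter at a mean of 5 CPM.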
